A study of Mus musculus with 14 samples.

Results

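Cyp26b1 and 8 further genes of retinoic acid metabolism, binding and reception were followed through the hippocampus of 2 mouse models of Down syndrome. The genes were Aldh1a1, Aldh1a2, Aldh1a3, Cyp26b1, Crabp1, Crabp2, Rarb, Rxrg and Stra6, which are 9 of 26476 named genes that could be tied to 1 of the 59796 assembled loci. For each symbol the locus with the highest mean was kept. They were picked by name, with the values of Cyp26b1 and Rxrg in Dp(16)1Yey/+ mice and their littermates already known. The differences of these genes in that comparison are therefore given as descriptions with no test, and tests are given for the 189N3 comparison alone.

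RNA was sequenced from the dissected hippocampus of single genotyped embryos or pools (the labels do not say which) at embryonic day 16 to 18. The 189N3 mice (3 libraries) carry an added bacterial artificial chromosome that holds Dyrk1a, a protein kinase gene, and were compared with 3 libraries of their wild-type littermates. The Dp(16)1Yey/+ mice (4 libraries) carry a duplicated stretch of chromosome 16 that corresponds to human chromosome 21, Dyrk1a included, and were compared with 4 libraries of their own wild-type littermates. No embryonic day or sex is given for single libraries, so neither can be told apart from the differences between libraries. None of the 9 genes lies in the duplicated stretch.

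Retinoic acid is a vitamin A derivative that binds nuclear receptors and so sets the transcription of target genes during development. Retinol enters cells through STRA6, is oxidised to retinaldehyde, and is turned into retinoic acid by the ALDH1A enzymes. CRABP proteins carry retinoic acid in the cell, the RAR and RXR receptors bind DNA as pairs at response elements, and the CYP26 enzymes degrade it, so that cells with CYP26 are shielded from it. In the embryonic forebrain the meninges, which make retinoic acid with ALDH1A2, are a known source, and the striatum is known for its retinoic acid receptors.

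The response element was looked for first in the promoters, since Rarb and Cyp26a1 are classical targets. RefSeq windows (assembly GRCm38.p6, the build called mm10) run from 250 bases before to 50 bases after a transcript's start. Of the 9 genes, 7 had such windows, 12 in all. Aldh1a3 and Crabp2 had none. The element searched was a direct repeat of the 6-letter half-site with 5 bases between the copies, where the half-site could be AGGTCA but also AGTTCA and likewise GGGTCA or otherwise GGTTCA, on both strands. It was found in 32 of 32851 windows of all genes, 0.0974%. Among the 9 genes it was found in 1 window, that of Rarb, which encodes retinoic acid receptor beta, at bases 53 to 37 before the RefSeq start. Repeats spaced by 2 or 1 bases, found in 0.268% and 0.222% of all windows, were in none of the 12. Of 56 further pathway genes, 41 had windows (57 in all), and the element was found in 1 of them, Cyp26a1, which encodes another retinoic acid hydroxylase. The Rarb and Cyp26a1 elements are shown because they are the matches, and the bases upstream of the Cyp26b1 start because this gene's libraries did not overlap between Dp(16)1Yey/+ mice and their littermates. Only parts of the searched windows are printed, and the Cyp26a1 and Cyp26b1 lines end just before the gene start in GENCODE, which lies upstream of the RefSeq start. Capitals mark the element, and each line runs 5′ to 3′ on the gene's strand. The printed stretches lie at chr14:16575507-16575535 (minus strand), chr19:37697736-37697797 (plus strand) and chr6:84593909-84594060 (minus strand).
Rarb: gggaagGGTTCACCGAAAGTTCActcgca
Cyp26a1: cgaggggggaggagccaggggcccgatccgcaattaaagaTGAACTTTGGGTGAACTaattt
Cyp26b1: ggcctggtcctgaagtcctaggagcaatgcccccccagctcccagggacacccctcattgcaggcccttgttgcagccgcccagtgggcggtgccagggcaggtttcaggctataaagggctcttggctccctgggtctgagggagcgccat
In Cyp26a1 the element stood on the opposite strand, where it reads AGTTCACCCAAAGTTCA. Set against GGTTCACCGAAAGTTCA of Rarb, 15 of 17 bases were alike, and the differences, counted from 1 at the 5′ end with the Rarb base first, were G1A in the first half-site and G9C in the spacer. These matches describe letters in a window and say nothing of a factor's binding. Cyp26a1 itself held 0 to 2 fragments in every library, whereas Rarb held 74 to 470.

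The values are normalized fragments, that is the fragments of a locus divided by 1 size factor for the library, and differences are on the log2(value + 1) scale, which understates the change of low genes. The libraries held 20809135 to 29098454 fragments. Dyrk1a, the check of the labels, stood at 4248, 3938 and 5877 in the 189N3 libraries and at 2448, 2977 and 2126 in their littermates, so that every 189N3 library lay above every littermate (log2 difference 0.89, standard error 0.24). Some libraries stood apart. The library labelled Dp(16)1Yey replicate 1 (replicates are numbered from 0) had a median log2 difference of 0.10 from the littermate mean over 85 genes of the duplicated stretch (chromosome 16 from 75540514 to 97962622), against 0.69, 0.58 and 0.40 in replicates 0, 2 and 3. Its Dyrk1a value, 2124, was also below all 4 littermates. The littermates of Dp(16)1Yey/+ mice formed nearly alike pairs, replicates 0 and 1 and replicates 2 and 3, whose squared differences were 1.64 and 2.02 times the counting noise, against 30.9 and 31.9 for replicate 0 compared with replicates 2 and 3. The differences of the 9 genes in Dp(16)1Yey/+ mice are given with and without these libraries. Standard errors in that comparison count all 4 littermates as separate samples and may therefore be too small.

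**Figure D1:**
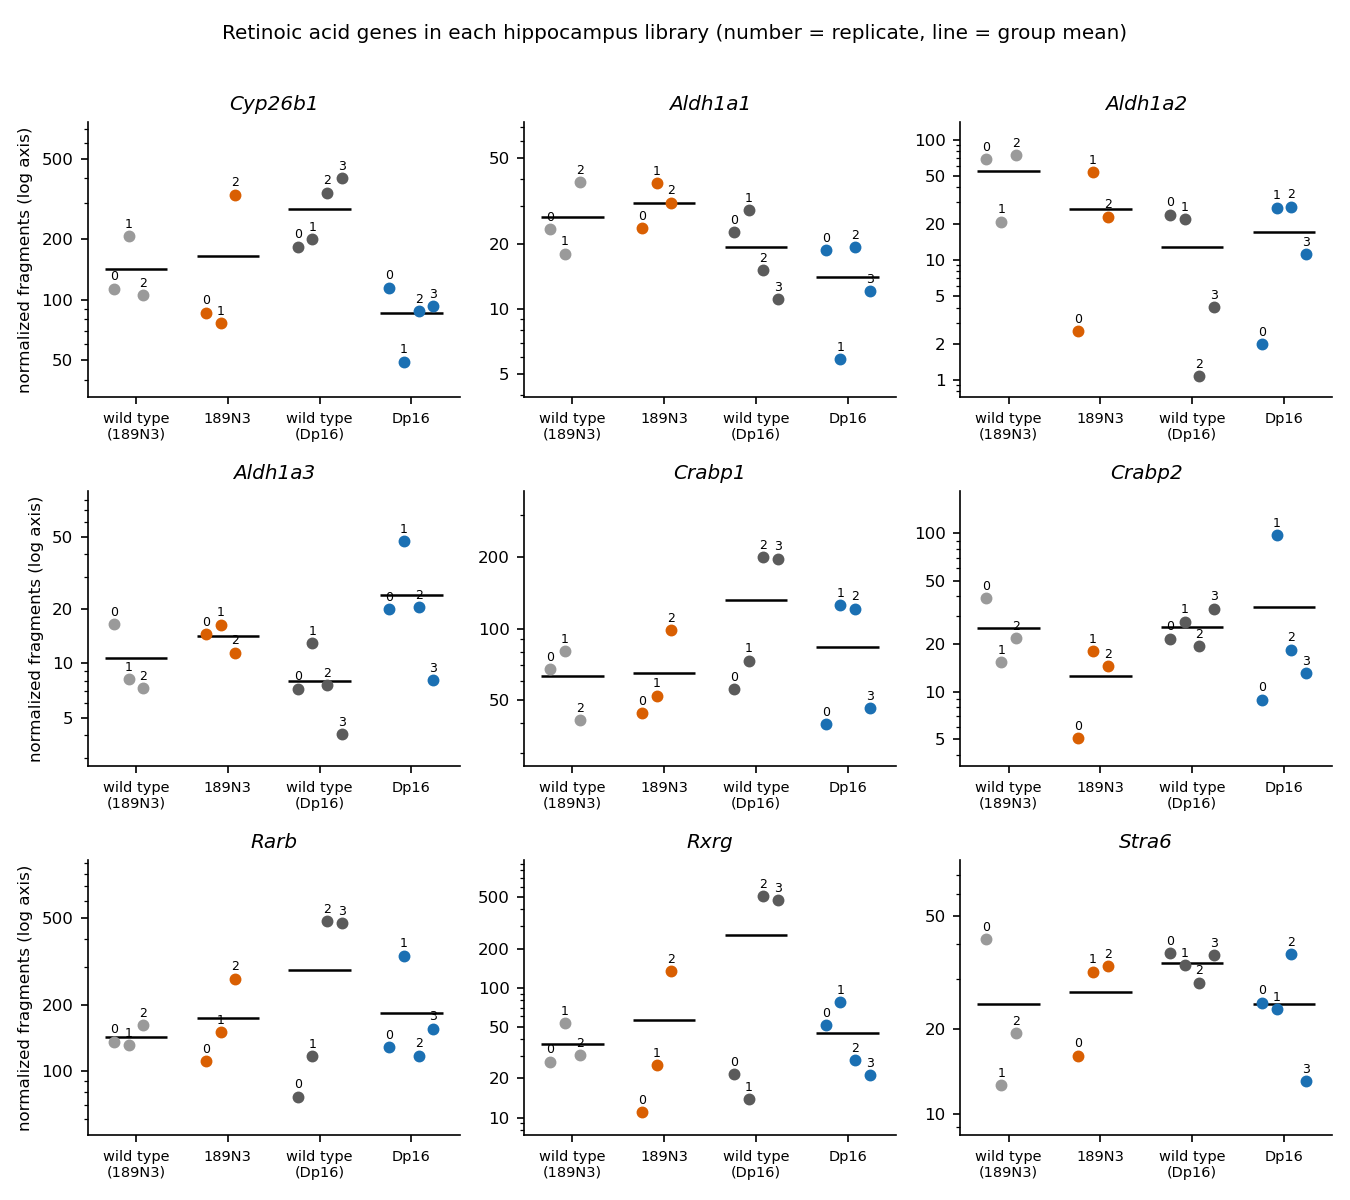
Normalized fragments (log axis) of the 9 genes in each of the 14 libraries, by group; numbers are replicates and lines are group means. Cyp26b1 in the Dp(16)1Yey/+ libraries (49.4 to 115) lay below all of their littermates (183 to 400.4), while Rxrg and Rarb split the same littermates into low replicates 0 and 1 and high replicates 2 and 3.

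Cyp26b1, which encodes the enzyme that degrades retinoic acid (locus XLOC_045219, chromosome 6 from 84571414 to 84593908, minus strand), was the member whose libraries did not overlap between Dp(16)1Yey/+ mice and their littermates. Replicates 0 to 3 held 115, 49.4, 87.8 and 92.6 normalized fragments. The wild-type littermates held 183, 199.9, 339 and 400.4. Every Dp(16)1Yey/+ library thus lay below every littermate, which was true of 1 of the 9 genes and, over all 36024 loci tested, of 0.736% in this direction and 2.45% in either. The means were 86.1 ± 27.2 (SD, n = 4) and 281 ± 106 (SD, n = 4), and the log2 difference was -1.68 (standard error 0.31). This is the contrast in which the gene had been noticed. The SD of the littermates and the standard error count 4 separate samples. Since the littermates formed nearly alike pairs, both may be too small. Over the whole table no locus passed limma's threshold in this comparison (0 of 36024 loci at an adjusted p under 0.05 by the Benjamini-Hochberg method), 1273 loci had an unadjusted p under 0.05, and edgeR called 0 loci and DESeq2 8.

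Each Dp(16)1Yey/+ library lay below each littermate, so dropping or averaging libraries could change the size of the Cyp26b1 difference but not its sign. Without Dp(16)1Yey replicate 1 it was -1.43. Against littermate replicates 0 and 1 alone it was -1.21, and against replicates 2 and 3 alone -2.15. With each alike pair averaged to 1 sample it was -1.68. The higher littermate pair held 1.93 times as much Cyp26b1 as the lower pair. The lowest littermate held 183 and the highest Dp(16)1Yey/+ library 115.

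In the 189N3 comparison, which played no part in the choice of the gene, Cyp26b1 held 86.3, 76.7 and 332 normalized fragments in the mutant libraries and 113, 207 and 105 in the wild-type littermates. Replicate 2 of 189N3 stood above all littermates and the other two below them, so the groups overlapped. The means were 165 ± 145 (SD, n = 3) and 142 ± 56.4 (SD, n = 3), with a log2 difference of -0.05 (standard error 0.45, limma adjusted p = 0.9999). By an exact two-sided permutation test the p-value was 1.0, where 3 against 3 libraries allow no less than 0.10. The sign was set by single libraries. The difference was -0.73 without 189N3 replicate 2 and 0.32 without 189N3 replicate 1, and it was 0.18 in edgeR and 0.27 in DESeq2. At this spread between libraries no difference of Cyp26b1 was detected, and the size of difference that could have been was not measured. The difference between the 2 models was not tested.

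Over the 4 groups the order of Cyp26b1 means was wild-type littermates of Dp(16)1Yey/+, 189N3, wild-type littermates of 189N3, and Dp(16)1Yey/+. Each neighbouring pair in this order overlapped in its libraries and differed by less than the larger SD. The 2 wild-type groups themselves stood at 281 and 142. Per kilobase of exon, Cyp26b1 had a mean level of 16.1 normalized fragments in Dp(16)1Yey/+ mice, 52.4 in their littermates, 30.8 in 189N3 mice and 26.5 in theirs.

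The assembled transcripts of Cyp26b1 were estimated separately by the authors. Nearly all of the locus was given to a variant of the UCSC transcript uc009coz.2 (68.1% over all libraries) and to uc009coy.2 (30.6%). For uc009coy.2 the Dp(16)1Yey/+ libraries held 14.4 and 14.7 normalized fragments in replicates 0 and 3 and next to nothing in replicates 1 and 2. The littermates held 123, 51.3, 94.99 and 137, all above the Dp(16)1Yey/+ libraries. This is the contrast in which the gene had been noticed, and the share of all transcripts with such a separation was not counted. In replicate 2 a further transcript, uc012eoc.1, was given 28.3 of the 87.8 units of the locus. For the variant of uc009coz.2 the Dp(16)1Yey/+ libraries held 98.8, 49.4, 59.5 and 77.5 against 60.8, 149, 243 and 264, and the groups overlapped through littermate replicate 0. That littermate and its near-twin replicate 1 gave 33.2% and 74.4% of the locus to this variant, so that the division between the transcripts varied widely between libraries whose genes agreed almost within counting noise. In 189N3 mice uc009coy.2 stood at 33.9, 33.0 and 61.8 and in their littermates at 49.3, 67.9 and 50.01, and these overlapped.

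**Figure D2:**
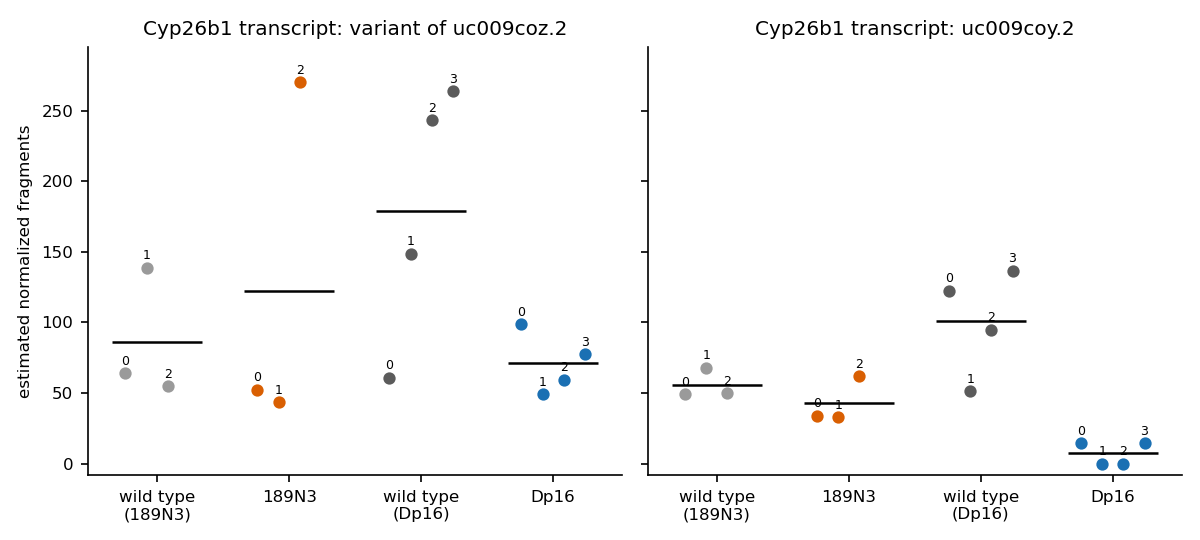
Estimated normalized fragments (linear axis) of the pair of main Cyp26b1 transcripts in each library; numbers are replicates and lines are group means. For uc009coy.2 the Dp(16)1Yey/+ libraries reached 14.7 at most and their littermates 51.3 at least, while the other transcript overlapped between the groups. The share of all transcripts with such a separation was not counted.

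The ALDH1A enzymes, which make retinoic acid, were low in every group and had differences of both signs. Aldh1a2 (chromosome 9 from 71215789 to 71296243) held 2.54, 53.8 and 22.8 normalized fragments in 189N3 mice and 68.4, 20.8 and 73.7 in their littermates. Both groups held low and high libraries and overlapped, with a log2 difference of -1.54 (standard error 0.74, limma unadjusted p = 0.0555 and adjusted p = 0.9999). The exact permutation p was 0.30. The value was -0.42 without 189N3 replicate 0 and -2.40 without 189N3 replicate 1. In Dp(16)1Yey/+ mice Aldh1a2 stood at 1.98, 27.0, 27.6 and 11.1, and in the littermates at 23.7, 21.8, 1.08 and 4.04. The log2 difference was 0.57 (standard error 0.89) over all libraries, -0.86 against littermate replicates 0 and 1, 2.01 against replicates 2 and 3, and 0.20 without Dp(16)1Yey replicate 1. This gene rested on 1 to 79 fragments a library.

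Of the marker genes of meninges and mural cells, several followed Aldh1a2 by library in the 189N3 comparison and others did not. Pdgfrb held 187, 304 and 349 normalized fragments in 189N3 mice. In their littermates it stood at 310, 235 and 232, lowest where Aldh1a2 was highest. Slc22a6, an anion transporter of meningeal cells, held 1.69, 26.9 and 5.19 normalized fragments in 189N3 mice and 26.9, 8.12 and 29.0 in their littermates, with the same libraries high and low as for Aldh1a2. Of 12 meningeal and mural marker genes tested in the 189N3 comparison, 11 had lower estimates than in the littermates and 3 an unadjusted p under 0.05, with a median log2 difference of -0.47 and 0 called at an adjusted p under 0.05 in limma. Over all loci tested 20159 of 35899 had lower estimates, and 1.05% were lower at an unadjusted p under 0.05. The summed level of the 13 measured markers ranged from 3394 to 5170 in 189N3 mice and from 4534 to 8298 in their littermates. In the littermates of Dp(16)1Yey/+ mice Slc22a6 held 9.27, 14.8, 0 and 3.03, high and low where Aldh1a2 was. In Dp(16)1Yey/+ mice it held 0.99, 1.18, 3.06 and 3.02 and did not follow Aldh1a2. The sums were 2675 to 4636 in Dp(16)1Yey/+ mice and 2250 to 3397 in their littermates. Slc22a6 was the only one of the 13 markers at 0 in any library. The part of the meninges in the Aldh1a2 values was not tested. In bulk tissue fewer cells of a type and less RNA in each cell cannot be told apart.

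Aldh1a1 (chromosome 19 from 20492715 to 20643465) held 23.7, 38.3 and 31.1 normalized fragments in 189N3 mice and 23.4, 18.05 and 38.7 in their littermates. The ranges overlapped, with a log2 difference of 0.25 (standard error 0.35, limma adjusted p = 0.9999). In Dp(16)1Yey/+ mice it held 18.8, 5.88, 19.4 and 12.1 against 22.7, 28.7, 15.1 and 11.1. Here too the ranges overlapped, and the log2 difference of -0.48 (standard error 0.42) was -0.94 against littermate replicates 0 and 1, -0.018 against replicates 2 and 3, and -0.14 without Dp(16)1Yey replicate 1. Aldh1a1 has a close paralog, and its assembled locus also took in the transcript E030003E18Rik, so its values are uncertain.

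Aldh1a3 (chromosome 7 from 66390890 to 66427517) was the member with the largest positive difference in Dp(16)1Yey/+ mice, at 19.8, 47.0, 20.4 and 8.05 normalized fragments against 7.21, 12.9, 7.56 and 4.04 in the littermates. Replicates 0, 1 and 2 lay above all littermates and replicate 3 among them. The log2 difference was 1.32 (standard error 0.49), and between 0.93 and 1.73 with each library left out in turn. It was 0.97 against littermate replicates 0 and 1 and 1.67 against replicates 2 and 3, and 0.93 was the value without Dp(16)1Yey replicate 1. With 4 to 40 fragments a library, counting error weighs heavily on this gene. In 189N3 mice Aldh1a3 held 14.4, 16.3 and 11.4 against 16.5, 8.12 and 7.25, an overlap with a log2 difference of 0.44 (standard error 0.42, limma adjusted p = 0.9999).

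The CRABP proteins followed different patterns. Crabp1, whose product binds retinoic acid in the cytoplasm (chromosome 9 from 54764748 to 54773110), had the highest level per kilobase of the 9 genes in all 4 groups, from 78.5 in the littermates of 189N3 to 164 normalized fragments per kilobase in the littermates of Dp(16)1Yey/+. It held 39.6, 126, 121 and 46.3 normalized fragments in Dp(16)1Yey/+ mice and 55.6, 73.2, 199.7 and 197 in their littermates. Littermate replicates 2 and 3 were the highest of these, and replicates 0 and 1 lay within the range of the Dp(16)1Yey/+ libraries. The log2 difference of -0.62 (standard error 0.50) became 0.19 against littermate replicates 0 and 1, -1.43 against replicates 2 and 3, and -0.88 without Dp(16)1Yey replicate 1. In 189N3 mice Crabp1 held 44.0, 52.2 and 98.6 against 67.6, 80.3 and 41.1, with a log2 difference of 0.01 (standard error 0.35, limma adjusted p = 0.9999).

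Crabp2, whose product delivers retinoic acid to the nucleus (chromosome 3 from 87948666 to 87953376), held 5.08, 17.9 and 14.5 normalized fragments in 189N3 mice and 39.0, 15.3 and 21.8 in their littermates. The highest 189N3 library (17.9) lay above the lowest littermate (15.3), so the groups overlapped. The log2 difference was -1.02 (standard error 0.47), and Crabp2 was the 1 member of 9 with an unadjusted p under 0.05 in limma (0.0470), against 1.05% of 35899 loci lower and 1.87% in either direction. With single libraries left out the difference ran from -1.34 to -0.52, the latter without 189N3 replicate 0. Its adjusted p in limma was 0.9999, and the exact permutation p was 0.20. All 7 measured erythroid markers also had lower estimates in 189N3 mice (summed levels 13939.8 to 22248 against 33998 to 54465), and their part in the Crabp2 value was not tested. Lower estimates were found for 20159 of 35899 loci in that comparison. In Dp(16)1Yey/+ mice Crabp2 held 8.90, 97.6, 18.4 and 13.1 against 21.6, 27.7, 19.4 and 33.4 in the littermates. The library labelled Dp(16)1Yey replicate 1 was far above the others, and replicates 0, 2 and 3 lay below all littermates. With this library the log2 difference was -0.19 (standard error 0.59) and -0.90 without it. The sign turned in edgeR (0.36) and DESeq2 (0.40), and against each pair of littermates the value was -0.17 and -0.22.

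The library with high Crabp2 also had the highest Aldh1a3 and Rarb values of its group (47.0 and 337 normalized fragments). It held the least Cyp26b1 of all 14 libraries. The same library had the highest value of each of 7 erythroid marker genes among the 8 libraries of its comparison (summed level 54579, against 4693 to 22804 in the other 7) and the lowest summed level of 10 hippocampus markers (5215). What set these values apart was not tested.

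The retinoid receptors showed the widest spread, and it lay between the littermates. Rxrg, which encodes retinoid X receptor gamma (chromosome 1 from 167598384 to 167639623), held 21.6, 13.9, 506 and 473 normalized fragments in the wild-type littermates of Dp(16)1Yey/+ mice. The higher pair thus held 27.6 times as much as the lower. The Dp(16)1Yey/+ libraries held 51.4, 77.6, 27.6 and 21.1, between the pairs or next to the lower one. Over all libraries the log2 difference was -1.24 (standard error 1.06), and -2.58 in edgeR and -2.57 in DESeq2, larger than the values of Cyp26b1 by these tools (-1.74 and -1.75). Without Dp(16)1Yey replicate 1 it was -1.56. It was 1.13 against littermate replicates 0 and 1, and -3.61 against replicates 2 and 3. In 189N3 mice Rxrg held 10.998, 25.3 and 134 against 26.9, 53.2 and 30.2, where replicate 2 again stood alone above the littermates. The log2 difference there was -0.05 (standard error 0.62, limma adjusted p = 0.9999), with values from -1.02 to 0.72 when single libraries were left out and 0.56 and 0.69 in edgeR and DESeq2.

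Rarb, retinoic acid receptor beta (chromosome 14 from 16430839 to 16819156), held 76.2, 117, 487 and 475 normalized fragments in the littermates of Dp(16)1Yey/+ mice, the same division as for Rxrg. The Dp(16)1Yey/+ libraries held 129, 337, 117 and 156, with replicate 1 highest. Its log2 difference was -0.34 (standard error 0.58), and -0.70 in both edgeR and DESeq2. Without replicate 1 it was -0.68. It was 0.82 against littermate replicates 0 and 1 and -1.51 against replicates 2 and 3. In 189N3 mice Rarb held 111, 150.1 and 265 against 136, 131 and 162, and the groups overlapped (log2 difference 0.20, standard error 0.31, limma adjusted p = 0.9999). Without 189N3 replicate 2 it was -0.14. The fragments of Rarb were divided over 6 known transcripts, and the share of the UCSC transcript uc007shh.2 was 34.7% over all libraries but 19.4% in the littermates of Dp(16)1Yey/+ mice, where uc007she.2 had 32.4%. These are shares of summed libraries, and those of the littermates mainly reflect replicates 2 and 3. By littermate library uc007shh.2 held 43.4, 68.5, 68.0 and 43.6 normalized fragments, and uc007she.2 13.9, 0.057, 214 and 146.

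Striatal genes divided the littermates as Rxrg and Rarb did. Isl1, a transcription factor of striatal and other neurons, held 4.12, 10.9, 329 and 331 in the littermates and 128, 427, 19.4 and 106 in the Dp(16)1Yey/+ libraries. It held 157 in 189N3 replicate 2, against 8.46 to 60.5 in the other 5 libraries of that comparison. Of 20 striatum markers, 19 reached a mean of 10 in the Dp(16)1Yey/+ comparison, and 14 of these had their highest value in littermate replicate 2 or 3. In the 189N3 comparison 15 of 19 had theirs in 189N3 replicate 2. The summed level of the 20 markers was 3586, 3408, 7569 and 7894 in the littermates, 5449, 5676, 3532 and 3659 in Dp(16)1Yey/+ mice, 4236, 4123 and 6466 in 189N3 mice and 3587 to 4298 in their littermates. No striatum marker was at 0 in any library. The part of striatal cells in the values of Rxrg, Rarb and Crabp1 was not tested.

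**Figure D3:**
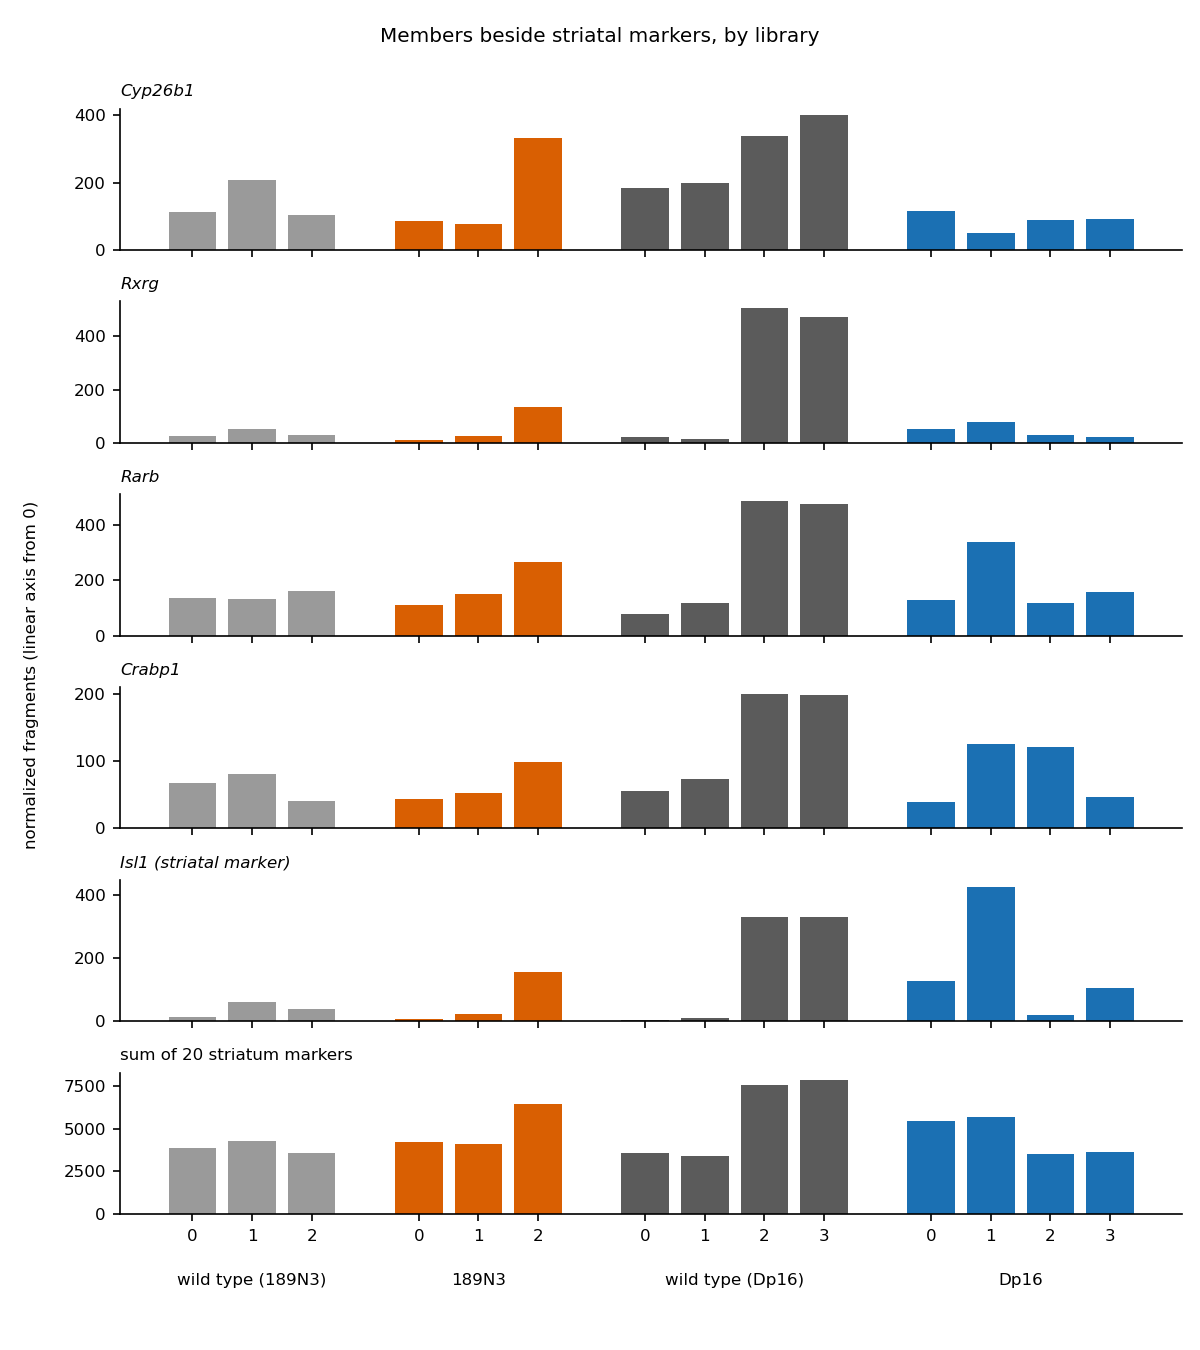
Normalized fragments (linear axes from 0) of Cyp26b1, Rxrg, Rarb, Crabp1 and the striatal marker Isl1, and the sum of 20 striatum markers, in every library, by group and replicate. Rxrg at 506 and 473 and Isl1 at 329 and 331 share their high littermate libraries, in which Cyp26b1 is at 339 and 400.4. In the littermates with Isl1 at 4.12 and 10.9, Cyp26b1 is at 183 and 199.9.

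Cyp26b1 had its highest littermate values in the same libraries as these receptors. Littermate replicates 2 and 3, with striatum marker sums of 7569 and 7894, held 339 and 400.4 of Cyp26b1. Replicates 0 and 1, with sums of 3586 and 3408, held 183 and 199.9. The Dp(16)1Yey/+ libraries held 49.4 to 115 at sums of 3532 to 5676. The part of striatal cells in the Cyp26b1 values was not tested. Hippocampus markers followed another order by library. All 10 had lower estimates in Dp(16)1Yey/+ mice (median log2 difference -0.50, 0 of 10 at an adjusted p under 0.05 and 1 at an unadjusted p under 0.05 in limma). Over all loci tested 16254 of 36024 had lower estimates, and 1.82% were lower at an unadjusted p under 0.05. The summed level of the hippocampus markers was 14361, 5215, 21359 and 6678 in the Dp(16)1Yey/+ libraries and 20394, 19345, 11414 and 12186 in the littermates. Replicates 1 and 3 were thus low in hippocampus markers, while the littermates with the higher sums held less Cyp26b1 than the others. With replicates 0 and 2 alone the log2 difference of Cyp26b1 was -1.40, and the part of hippocampal cells in it was not tested. Of Cajal-Retzius cell markers 8 of 8 had lower estimates, with sums of 11985 to 28496 against 16410 to 29324. No marker of either list was at 0 in any library.

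Stra6, the receptor through which retinol is taken up (chromosome 9 from 58063788 to 58153996), held 24.7, 23.5, 36.7 and 13.1 normalized fragments in Dp(16)1Yey/+ mice and 37.1, 33.6, 29.1 and 36.4 in their littermates. The littermates lay close together, and 3 of the 4 Dp(16)1Yey/+ libraries lay below them. Its log2 difference was -0.54 (standard error 0.30), and nearly the same against either pair of littermates (-0.59 and -0.48). In 189N3 mice Stra6 held 16.1, 31.8 and 33.2 against 41.6, 12.6 and 19.3, with a log2 difference of 0.23 (standard error 0.43, limma adjusted p = 0.9999). Stra6 rested on 13 to 48 fragments a library. Without Dp(16)1Yey replicate 1 its difference in those mice was -0.55.

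**Figure D4:**
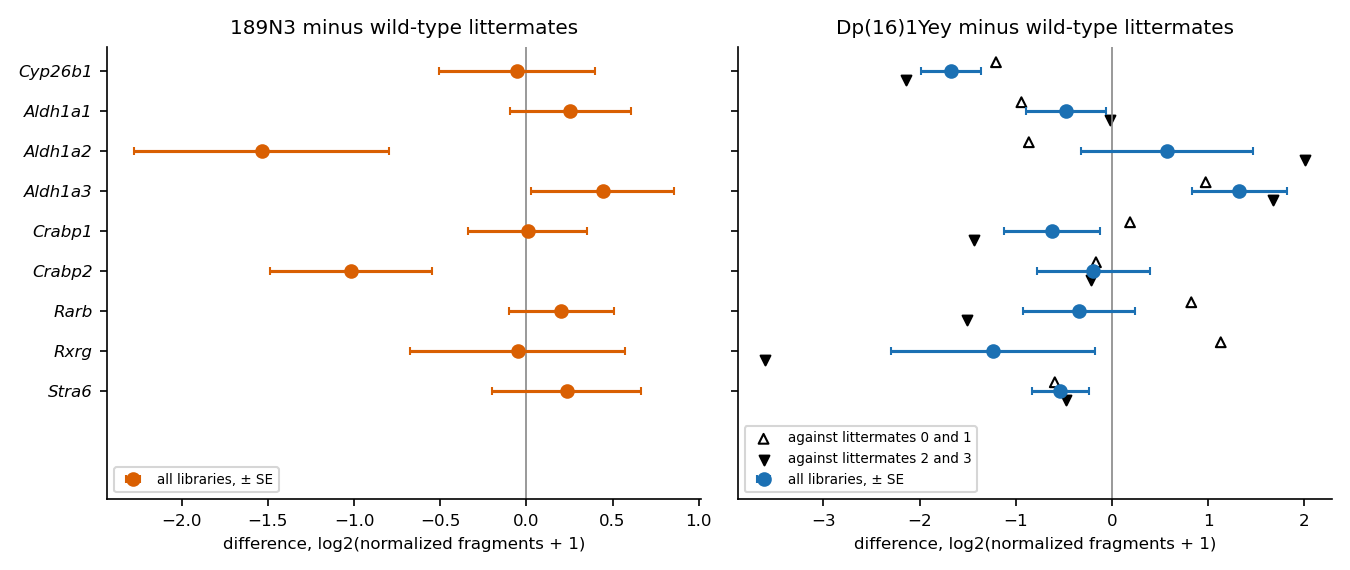
Log2 differences of the 9 genes from the wild-type littermates in 189N3 mice (left) and Dp(16)1Yey/+ mice (right), with the standard error of limma as bars; on the right, triangles give the difference against each alike pair of littermates. Rxrg moves from 1.13 to -3.61 and Cyp26b1 from -1.21 to -2.15 between the pairs, and no gene on the left passed the test.

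Set side by side, 0 of 9 genes passed the test in 189N3 mice (adjusted p under 0.05 in limma), where 0% of 35899 loci did, and 0 of 9 had groups that did not overlap, against 4.98% of all loci (1.99% higher and 2.99% lower). Of these 9 estimates 5 were higher and 4 lower, with a median log2 difference of 0.01, beside -0.04 over all loci tested. In Dp(16)1Yey/+ mice 7 of the 9 estimates were lower and 2 higher, with a median of -0.48 beside 0.03 over all loci. This count includes Crabp2, whose sign turned in edgeR and DESeq2. Against littermate replicates 0 and 1 alone, 5 were lower and 4 higher, and against replicates 2 and 3 alone 7 were lower and 2 higher. The sign was the same against both pairs for 5 genes, Cyp26b1, Aldh1a1, Aldh1a3, Crabp2 and Stra6, and it turned for Aldh1a2, Crabp1, Rarb and Rxrg. For Cyp26b1 it could not turn, since its groups did not overlap. Across the 4 groups, 27 neighbouring pairs of group means were compared for the 9 genes. In all 27 the libraries overlapped, and in 1, Crabp2 between 189N3 mice and their littermates, the means differed by more than the larger SD (12.5 and 25.4, SD 6.67 and 12.2).

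The wider pathway was read from 56 further genes, of which 42 were tested in 189N3 mice and 41 in Dp(16)1Yey/+ mice. None passed the test in either model (smallest adjusted p in limma 0.9999 and 0.909). In 189N3 mice 2 genes were higher and 0 lower at an unadjusted p under 0.05, against 1.87% of all loci in either direction. In Dp(16)1Yey/+ mice 0 were higher and 3 lower, against 1.71% and 1.82% of all loci (3.53% in either direction). Nr2f2 and Tshz1 were among the lower genes, named here after their values were seen. The median log2 difference was 0.05 and -0.13, beside -0.04 and 0.03 over all loci. In 189N3 mice 3 of the 42 lay above all littermates (Nrip1, Nav2 and Bco2), against 1.99% of all loci, and in Dp(16)1Yey/+ mice 0 of 41 were without overlap, against 1.72% of loci higher and 0.736% lower. Cyp26c1, Hoxb1, Stra8 and Cdx1 were at 0 in all 14 libraries, which allows up to 3 fragments in each (counting error only).

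Nrip1, a corepressor that binds retinoic acid receptors and itself responds to retinoic acid, held 652, 519 and 824 normalized fragments in 189N3 mice and 336, 432 and 468 in their littermates. The log2 difference was 0.68 (standard error 0.25, limma adjusted p = 0.9999, exact permutation p = 0.10, the smallest that 3 against 3 allow). Nrip1 lies in the duplicated stretch (chromosome 16 from 76287400 to 76373827), as the 1 gene of the 56 that does, and held 1470, 534, 354 and 808 in Dp(16)1Yey/+ mice against 364, 333, 457 and 560.2 (log2 difference 0.71, standard error 0.37). Nav2, a neuron navigator gene induced by retinoic acid, held 1255, 727 and 1176 in 189N3 mice against 699, 605 and 671 (log2 difference 0.64, standard error 0.26, limma adjusted p = 0.9999). The Nav2 estimate in Dp(16)1Yey/+ mice was -0.26 (standard error 0.38). Bco2, a carotenoid-cleaving enzyme gene, stood at 14.96 ± 5.06 against 10.4 ± 1.196 (SD, n = 3 each), a difference of few fragments.

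By role, the 8 other nuclear receptors had median log2 differences of 0.01 in 189N3 mice and -0.29 in Dp(16)1Yey/+ mice, where 8 of 8 estimates were lower and 1 of them, Nr2f2, an orphan receptor of the COUP family, had an unadjusted p under 0.05 in limma (log2 difference -0.88, standard error 0.40, adjusted p = 0.909). The estimates of these receptors also depended on the littermate pair, by less than those of Rxrg and Rarb. Against littermate replicates 2 and 3 alone 8 of 8 were lower (median -0.67), but against replicates 0 and 1 alone 2 were lower and 6 higher (median 0.056). Rxra, Ppard and Nr2f1 were higher by only 0.02 to 0.08. The 2 lower against both pairs were Nr2f2 and Nr4a2, the latter with -0.56 against replicates 0 and 1 and -0.74 against replicates 2 and 3. Without Dp(16)1Yey replicate 1 the median was -0.24. Nr2f2 held 827, 575, 984 and 412 normalized fragments in Dp(16)1Yey/+ mice and 702, 748, 1981 and 2107 in the littermates, with differences of -0.13 and -1.62 against the lower and the higher pair. The hippocampus and Cajal-Retzius markers also had lower estimates in these mice, and their part was not tested. Rara and Rarg, the other retinoic acid receptor genes, had differences of -0.43 and -0.16 there. Of 11 coregulators 10 had higher estimates in 189N3 mice (median 0.15) and 8 lower ones in Dp(16)1Yey/+ mice (median -0.11). Over all loci 15740 of 35899 estimates were higher in 189N3 mice and 16254 of 36024 lower in Dp(16)1Yey/+ mice. The 10 tested genes of retinaldehyde production and reduction, such as Rdh10, which makes retinaldehyde, had medians of -0.04 and -0.01, and the 9 tested response genes medians of 0.06 and -0.06. Fabp5, another retinoic acid carrier, held 7834 and 7748 normalized fragments on average in 189N3 mice and their littermates (log2 difference -0.00) and 6070.0 and 6162 in the other comparison (-0.02).

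**Figure D5:**
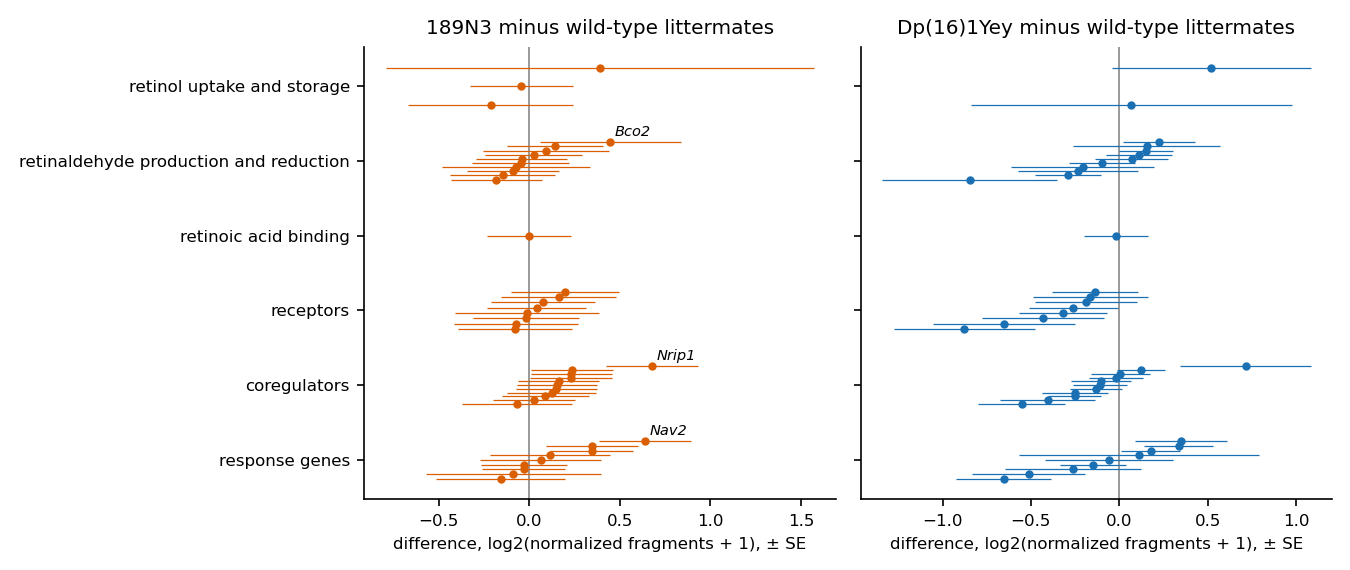
Log2 differences from wild-type littermates with standard errors (limma) of the pathway genes outside the 9, by role, in 189N3 mice (left, 42 genes) and Dp(16)1Yey/+ mice (right, 41 genes). Named points are genes whose 189N3 libraries all lay above their littermates; none passed the test, and all 8 receptors lie left of 0 on the right, although 6 of them were higher against littermate replicates 0 and 1 alone.

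The genes whose log2 values followed Cyp26b1 most closely over the 14 libraries, among 12477 named loci with a mean of at least 50, were Tppp3 (Pearson r 0.913), Sorcs3 (0.907), Usp2 (0.895), Sirpa (0.893) and Stk30 (0.887). Sorcs3, a sorting receptor gene of neurons, had means of 118 normalized fragments in Dp(16)1Yey/+ mice and 287 in their littermates, 218 in 189N3 mice and 212 in theirs. That is the order of groups seen for Cyp26b1, but these genes were picked by likeness over the same libraries, which favours a shared order. Tppp3 (59.5 in 189N3 mice and 66.9 in their littermates) and Stk30 (171 and 180) had those groups the other way round. After the group means were subtracted the 5 closest were Abhd6 (0.954), Snap25 (0.954), Cryl1 (0.953), Micu3 (0.940) and Mmab (0.932), different genes from the first 5. The correlations of the members were lower, at 0.637 for Rxrg, 0.503 for Crabp1 and 0.396 for Rarb before subtraction. The points are libraries that share their depth and size factor between genes, and nearly alike pairs are among them.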

How the data were processed

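Hippocampi were dissected from embryos at day 16 to 18 and stranded total RNA libraries were read as paired ends. According to the labels and methods, the authors mapped reads to mm10 with TopHat and Bowtie and quantified merged Cufflinks transcripts, correcting for bias and for reads with several places. Versions are not given in the sources used here. The deposited gene and isoform tables hold signal: the authors' fragments per locus or transcript divided by 1 size factor per library (0.816 to 1.21 normalized units per fragment). Every nonzero gene value was within 0.01 fragments of a whole multiple of its library's step (100% in each library), and these multiples were taken as fragments. In 4 libraries the step lay within about 1% of 1, where such multiples are harder to tell from whole numbers.

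Loci were named by matching each to the deposited transcript map through isoform sums (59378 of 59796 loci matched, 27818 with a name), and per symbol the locus with the highest mean was kept. Coordinates and exon lengths are those of GENCODE vM21 on mm10. Groups came from the labels' genotypes. In limma 3.58.1 (R 4.3.3), log2(value + 1) was compared within each model, with a trend, for loci with a mean of at least 10, with Benjamini-Hochberg adjustment and a threshold of 0.05. Single members were tested by exact permutation in Python 3.11.15. Depth was 20809135 to 29098454 fragments, so values near 10 carry large counting error. In simulated data 200 loci were changed (log2 change of 1, dispersion 0.03). The test recovered 82% of them among 35375 loci for 189N3 and 96.5% among 35587 for Dp(16)1Yey/+. It made 0 calls when nothing was changed. These shares hold for a dispersion of 0.03 only, and none was obtained for loci at the level or spread of the members. The standard errors of the members in limma were 0.31 to 0.74 for 189N3 and 0.30 to 1.06 for Dp(16)1Yey/+. The shares therefore do not measure the power to detect a change in a member. Labels do not say whether samples came from separate litters, so p-values measure only the spread between these samples.

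The members and lists were chosen with earlier results of these data known. The text names all members, Dyrk1a, pathway genes without overlap in a contrast, and the 5 named loci (mean of at least 50) most correlated with Cyp26b1, before and after subtraction of group means. Alternatives were other pseudocounts, filters, scalings, fits and tools (edgeR 4.0.16 and DESeq2 1.42.0 on recovered fragments), the replicate number as a block, and each library left out. Averaging alike littermate libraries, comparing with each pair alone, and Dp(16)1Yey replicates 0 and 2 alone were added after the values were seen. Some single genes of the lists are not reported here.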

Additional observations from a re-analysis of the deposited data

Results flagged for a closer look

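Crabp2 in the library labelled Dp(16)1Yey replicate 1, at 97.6 normalized fragments, stood apart from the other 3 libraries of its group (8.90 to 18.4), by a gap that made up nearly the whole range of the group. It was the only such value among the 18 sets of 4 libraries examined for the 9 genes (9 genes in 2 groups of 4), and chance marks about 1 in 20. The same library held 83 fragments of Crabp2, so the value does not rest on a handful of counts.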

How the results depend on the processing

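In 189N3 mice the number of loci called, 0, became 3 with median-ratio size factors, 15 in DESeq2 and 72 with the replicate number as a block, and was 0 to 28 with single libraries left out (28 without wild-type replicate 1). In Dp(16)1Yey/+ mice it was 0, 8 in DESeq2, 0 with the block, and 0 to 3 with single libraries left out (3 without replicate 1). The replicate numbers do not pair the samples (correlations of same-numbered deviations from -0.45 to -0.03). With the block 1 member was called in 189N3 mice, Aldh1a2 (log2 difference -1.54, limma adjusted p = 0.0498). No other alternative of the 17 called a member, and none of those run in either model called a pathway gene. The sign of Cyp26b1 in 189N3 mice turned in edgeR (0.18) and DESeq2 (0.27), and that of Rxrg with a pseudocount of 10 (0.062), in edgeR (0.56) and in DESeq2 (0.69). The cause was not tested. A filter at a mean of 100 kept only Cyp26b1 and Rarb in 189N3 mice, and Cyp26b1, Rarb, Rxrg and Crabp1 in Dp(16)1Yey/+ mice. With single libraries left out, the 189N3 differences ran from -0.73 to 0.32 for Cyp26b1, -1.02 to 0.72 for Rxrg, -0.14 to 0.48 for Rarb, -0.33 to 0.24 for Crabp1 and -0.14 to 0.68 for Stra6. For Cyp26b1 in Dp(16)1Yey/+ mice they ran from -1.85 to -1.43, and over its 15 other alternatives from -2.15 to -1.21. Crabp2 in Dp(16)1Yey/+ mice turned in edgeR (0.36) and DESeq2 (0.40). Aldh1a1 ran from 0.018 to 0.55 in 189N3 mice and from -0.70 to -0.14 in Dp(16)1Yey/+ mice with single libraries left out. The number of fragments limits Aldh1a1, Aldh1a2, Aldh1a3, Crabp2 and Stra6, whose libraries held 1 to 83.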
